A study of Homo sapiens with 12 samples.

Results

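Control cells of MUTZ-1 and of SKM-1, the 2 human cell lines of a study of NUDT21 knockdown in myelodysplastic syndrome, were compared across all genes to describe the lineage program that each line carries. The comparison took the 6 libraries that the titles call sh control, 3 from each line, out of 12 in the series. The other 6 libraries come from the same lines with a short hairpin RNA against NUDT21 and are used only where a line difference is set beside them. All 12 libraries carry the label WT for genotype, marrow for tissue and myelodysplastic syndrome cells for cell type. The lines grew in 1640 medium with fetal bovine serum and antibiotics, and both control groups hold the control hairpin. Nothing in the labels says whether replicates were separate cultures or separate hairpin transductions, and the p-values therefore cover only the variation among the libraries at hand, which could be technical. NUDT21 measured 299.5 ± 2.31 CPM in MUTZ-1 and 334 ± 11.1 CPM in SKM-1 in the control libraries, and averaged 138 and 131 CPM in the knockdown libraries, which checks the knockdown labels. The names MUTZ-1 and SKM-1 are those of the labels, and whether the cells are those lines was not tested.

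The 6 libraries held 16540314 to 18426619 counts over 17518 genes, and 13625 genes passed the filter on low counts. Levels are in CPM, a gene's share of its library's counts, scaled by trimmed means of M values (TMM). They are given per library in replicate order or as mean ± SD (n = 3 per line). A log2 difference is always MUTZ-1 minus SKM-1, with its standard error (SE), and a call is an adjusted p under 0.05 in the quasi-likelihood test of edgeR, corrected by Benjamini-Hochberg over all genes tested. Since 90.2% of the genes tested were called, 41.4% higher in MUTZ-1 and 48.8% higher in SKM-1, a call alone separates few genes from the rest. The lists of genes below are therefore counted at a call with a difference of at least 2-fold, which 2189 genes (16.1% of those tested) reached in MUTZ-1 and 4034 genes (29.6%) in SKM-1. The groups overlapped for 35 of these 6223 genes. The median log2 difference over all genes tested was -0.11. With library totals in place of the scaling factors the differences of all genes shifted by a median of -0.14, so that differences near 0 depend on the scaling. Where a gene had no count in a line, its fold is given as at least the value that 3 counts over the 3 libraries would give, and with 1 to 3 counts it is a ratio with a 95% interval. Both cover counting error only. In bulk libraries, fewer cells of a type and less RNA per cell cannot be told apart.

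B-lineage identity is built by a short chain of transcription factors. TCF3 and EBF1 open the B-cell program, PAX5 commits the cell to it, and IKZF1, BACH2, SPIB, IRF8 and the coactivator POU2AF1 act with them at later steps. Red cell formation runs on another set, in which GATA1, TAL1, LMO2 and LDB1 form a complex on DNA and KLF1 switches on globin and membrane genes. SPI1, also called PU.1, serves both B and myeloid cells and opposes GATA1, and the CEBP factors drive granulocyte and monocyte genes.

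The B-lineage factors were high in MUTZ-1. 16 of 19 listed genes were at least 2-fold higher in MUTZ-1 and 0 in SKM-1 (median log2 difference 4.33 over the 19 tested, 4.06 with bounds). PAX5 stood at 604, 596 and 630.3 CPM in the MUTZ-1 libraries and 0.674, 0.597 and 0.977 CPM in the SKM-1 libraries (log2 difference 9.66 ± 0.07 SE, adjusted p = 4.79e-59), and EBF1 at 54.01, 52.8 and 54.98 CPM in the MUTZ-1 libraries and 0.0562, 0.109 and 0.2298 CPM in the SKM-1 libraries (log2 difference 8.61 ± 0.16 SE, adjusted p = 1.24e-120). Every MUTZ-1 library lay above every SKM-1 library for both factors. ETS1, an ETS factor of lymphocytes, measured 929.5, 936 and 963 CPM in the MUTZ-1 libraries and 0.674, 0.868 and 1.15 CPM in the SKM-1 libraries (log2 difference 10.03 ± 0.05 SE, adjusted p = 4.87e-209). IRF8, which B cells share with monocytes and dendritic cells, measured 346, 351 and 343 CPM in the MUTZ-1 libraries and 0.225, 0.326 and 0.4597 CPM in the SKM-1 libraries (log2 difference 9.98 ± 0.08 SE, adjusted p = 2.69e-184). POU2AF1, the coactivator of octamer-binding factors, measured 534 ± 7.203 CPM in MUTZ-1 and 0.559 ± 0.193 CPM in SKM-1 (log2 difference 9.88 ± 0.06 SE, adjusted p = 3.21e-212). These 5 genes had under 1 CPM on average in SKM-1.

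Other B-lineage factors were present in both lines at unequal levels. TCF3 measured 957 ± 13.1 CPM in MUTZ-1 and 168 ± 2.19 CPM in SKM-1 (log2 difference 2.51 ± 0.02 SE, adjusted p = 1.49e-181). IKZF1 measured 741 ± 14.6 CPM in MUTZ-1 and 36.8 ± 0.422 CPM in SKM-1 (log2 difference 4.33 ± 0.03 SE, adjusted p = 1.94e-205). IKZF3, a relative of IKZF1 in more mature lymphocytes, measured 192 ± 2.92 CPM in MUTZ-1 and 1.21 ± 0.176 CPM in SKM-1. The 3 listed genes without a 2-fold difference were LEF1, MEF2C and PRDM1. LEF1, a WNT-responsive factor of early lymphocytes, measured 195, 198 and 204 CPM in the MUTZ-1 libraries and 182, 184 and 188 CPM in the SKM-1 libraries, which differ by a log2 of 0.11, or -0.029 with library totals. PRDM1, the factor of plasma cells, stood at 1.07 ± 0.205 and 0.855 ± 0.253 CPM and was not called (adjusted p = 0.371), and IRF4, which plasma cells also need, stood at 0.668 ± 0.313 CPM in MUTZ-1 and had no count in SKM-1.

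**Figure D1:**
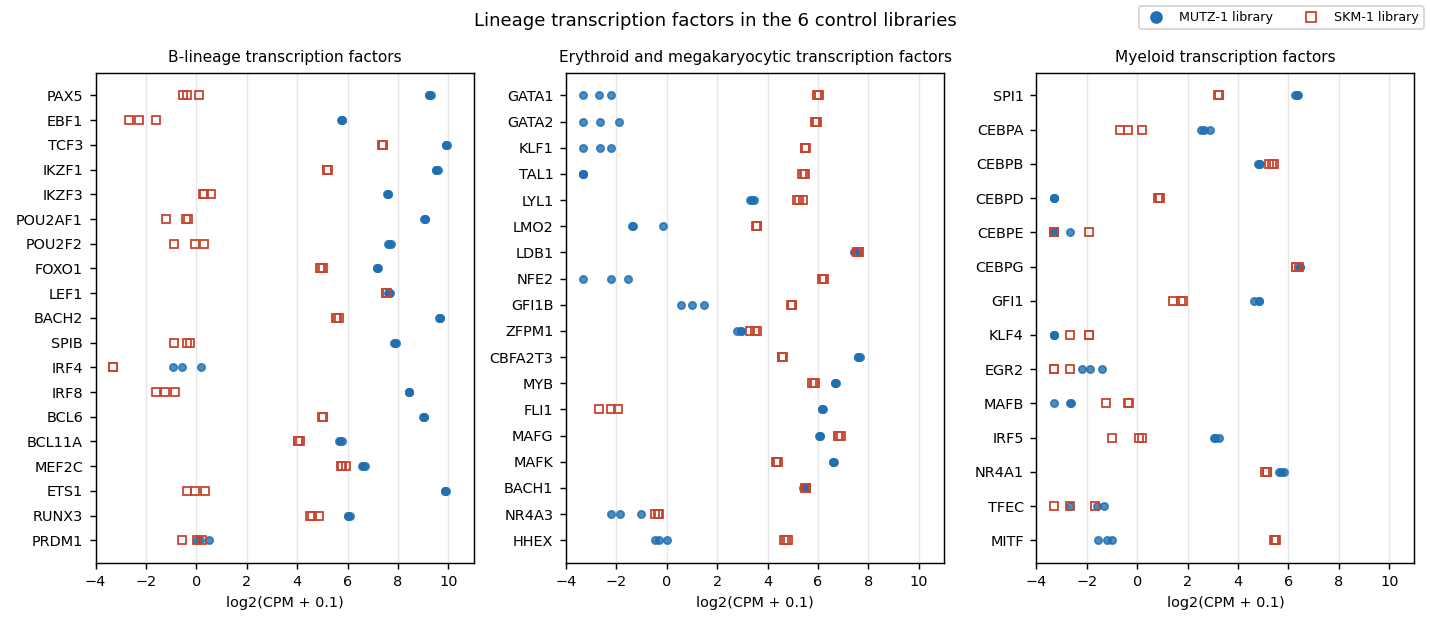
Level of each listed lineage transcription factor in the 6 control libraries, as log2(CPM + 0.1), with 1 point per library (filled circles MUTZ-1, open squares SKM-1). PAX5, EBF1, ETS1 and IRF8 lie far to the right in MUTZ-1, GATA1, KLF1, TAL1 and NFE2 in SKM-1, and CEBPA, CEBPD and CEBPE lie below 10 CPM in both lines.

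The erythroid factors showed the opposite picture. 10 of 18 listed genes were at least 2-fold higher in SKM-1 and 3 in MUTZ-1 (median log2 difference -1.71 over the 18 tested). GATA1 measured 62.2, 65.1 and 64.6 CPM in the SKM-1 libraries and 0.0566, 0 and 0.113 CPM in the MUTZ-1 libraries (ratio 1111, 95% interval 379.8 to 5389, adjusted p = 2.38e-134). KLF1 measured 44.6, 44.8 and 45.8 CPM in the SKM-1 libraries and 0, 0.0597 and 0.113 CPM in the MUTZ-1 libraries (ratio 782, 95% interval 267 to 3797, adjusted p = 1.22e-119). TAL1 measured 44.2, 40.6 and 43.5 CPM in the SKM-1 libraries and 0, 0 and 0 CPM in the MUTZ-1 libraries (at least 742-fold higher in SKM-1, adjusted p = 3.14e-115). For these 3 factors the MUTZ-1 libraries together held 3, 3 and 0 counts. NFE2, which acts at the globin locus control region, measured 74.8, 72.1 and 72.5 CPM in the SKM-1 libraries and 0, 0.239 and 0.113 CPM in the MUTZ-1 libraries (log2 difference -9.22 ± 0.14 SE, adjusted p = 2.58e-138). GATA2, the GATA factor of progenitors and mast cells, measured 61.5, 59.7 and 58.3 CPM in the SKM-1 libraries and 0.1698, 0.0597 and 0 CPM in the MUTZ-1 libraries (log2 difference -9.47 ± 0.16 SE, adjusted p = 3.24e-131). LMO2, the bridge of the GATA1 and TAL1 complex, measured 11.7 ± 0.136 CPM in SKM-1 against 0.458 ± 0.289 CPM in MUTZ-1, and LDB1, its partner, measured 176 ± 3.55 CPM in MUTZ-1 and 191 ± 5.89 CPM in SKM-1, a log2 difference of -0.12. The 3 listed factors that were at least 2-fold higher in MUTZ-1 were FLI1, CBFA2T3 and MAFK. FLI1, an ETS factor of megakaryocytes and lymphocytes, measured 72.2 ± 0.916 CPM in MUTZ-1 and 0.111 ± 0.0534 CPM in SKM-1 (log2 difference 9.24 ± 0.15 SE, adjusted p = 4.74e-132).

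The upstream sequence of genes in both programs was searched for the short motifs that these factors are known to bind, because the factors and many of their known targets differed in the same direction. The window was the 250 bases before the annotated start in RefSeq (GRCh38.p14), read on both strands. AGATAA or TGATAA, the GATA motif, occurred in 20 of 46 genes of the erythroid lists with a sequence (43.5%, of 68 listed), in 10 of 62 genes of the B-lineage lists (16.1%, of 81 listed) and in 17.5% of the 27305 genes of the reference table. GAGGAAGT, a core of the PU box bound by SPI1 and SPIB, occurred in 8 of the 62 B-lineage genes (12.9%), in 0 of the 46 erythroid genes and in 2.65% of the table. ATGCAAAT, the octamer, occurred in 4 of the 62 (6.45%), in 0 of the 46 and in 2.03% of the table. The EBF core, TCCC and GGGA with any 2 bases between them, occurred in 1 of the 62 (1.61%), in 1 of the 46 (2.17%) and in 1.31% of the table. GGGCGG, the GC box of broadly active promoters, occurred in 53.2%, 69.6% and 46.2% of the B-lineage genes, the erythroid genes and the table. None of these motifs contains another. Lists differ in base composition, genes with many promoters are matched once, and a match shows only that the letters are there. The 20 erythroid genes with a GATA motif include GYPB with GYPE and RHD with RHCE, which are close copies and may share upstream sequence. Known targets of these factors are among the listed genes, so the lists are not an open choice of genes.

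The 3 erythroid promoters and 2 B-lineage promoters are shown because each belongs to a gene of the results and holds the motif of its own program, in capitals. KLF1 (chr19:12887202-12887451, minus strand), ALAS2 (chrX:55030978-55031227, minus strand), KEL (chr7:142962364-142962613, minus strand), FCRL1 (chr1:157820121-157820370, minus strand) and FCRLA (chr1:161706979-161707228, plus strand) are given 5′ to 3′ up to the base before the start. The first base of the motif lies 66 bases before the start in KLF1, 127 in ALAS2, 62 and 26 in KEL, 16 in FCRL1 and 44 in FCRLA.
KLF1: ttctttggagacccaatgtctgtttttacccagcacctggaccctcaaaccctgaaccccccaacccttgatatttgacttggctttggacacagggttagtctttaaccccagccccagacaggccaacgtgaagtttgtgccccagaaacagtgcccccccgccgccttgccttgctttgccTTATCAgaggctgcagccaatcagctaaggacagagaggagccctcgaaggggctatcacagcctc
ALAS2: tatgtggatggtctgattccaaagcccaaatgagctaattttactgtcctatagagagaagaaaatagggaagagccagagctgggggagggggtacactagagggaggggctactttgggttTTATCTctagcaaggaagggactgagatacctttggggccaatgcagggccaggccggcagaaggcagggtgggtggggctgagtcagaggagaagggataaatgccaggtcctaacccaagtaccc
KEL: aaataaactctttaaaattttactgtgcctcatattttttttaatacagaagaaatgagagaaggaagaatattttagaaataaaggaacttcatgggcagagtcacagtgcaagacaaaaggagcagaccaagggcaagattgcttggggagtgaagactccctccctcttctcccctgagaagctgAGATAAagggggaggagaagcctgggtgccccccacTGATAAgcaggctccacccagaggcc
FCRL1: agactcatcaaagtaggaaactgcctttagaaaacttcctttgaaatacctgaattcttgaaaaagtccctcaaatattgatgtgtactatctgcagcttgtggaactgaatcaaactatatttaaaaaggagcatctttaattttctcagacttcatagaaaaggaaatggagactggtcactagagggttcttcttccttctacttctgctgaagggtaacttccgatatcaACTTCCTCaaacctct
FCRLA: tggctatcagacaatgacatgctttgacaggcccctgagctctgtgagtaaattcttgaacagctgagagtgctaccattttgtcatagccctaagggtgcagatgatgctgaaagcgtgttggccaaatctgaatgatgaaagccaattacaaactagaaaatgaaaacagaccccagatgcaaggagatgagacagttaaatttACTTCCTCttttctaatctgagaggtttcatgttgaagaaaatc

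ALAS2, the first enzyme of heme synthesis in red cells, measured 48.7, 51.8 and 50.7 CPM in the SKM-1 libraries and 0, 0 and 0.1697 CPM in the MUTZ-1 libraries (ratio 875, 95% interval 299 to 4246, adjusted p = 4.08e-117). KEL, the Kell blood group protein, measured 35.4, 35.4 and 34.5 CPM in the SKM-1 libraries and 0.3397, 0 and 0.0566 CPM in the MUTZ-1 libraries (log2 difference -7.95 ± 0.17 SE, adjusted p = 3.96e-109). FCRLA, an intracellular Fc receptor-like protein of B cells, measured 544, 528 and 537 CPM in the MUTZ-1 libraries and 0.337, 0.434 and 0.517 CPM in the SKM-1 libraries (log2 difference 10.26 ± 0.07 SE, adjusted p = 1.55e-211). FCRL1 measured 49.8, 49.6 and 51.9 CPM in the MUTZ-1 libraries and 0.112, 0.0543 and 0.0575 CPM in the SKM-1 libraries (log2 difference 9.27 ± 0.18 SE, adjusted p = 3.74e-120). Each of the genes shown was thus near 0 in the other line, with no overlap between the groups.

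Myeloid factors did not separate the lines in 1 direction. 4 of 14 listed genes were at least 2-fold higher in MUTZ-1 and 2 in SKM-1 (median log2 difference 0.60 over the 9 tested). SPI1 was higher in MUTZ-1, at 80.8, 82.97 and 75.97 CPM in the MUTZ-1 libraries and 9.44, 9.17 and 9.48 CPM in the SKM-1 libraries (log2 difference 3.09 ± 0.07 SE, adjusted p = 1.95e-104). CEBPA, which granulocytes and monocytes need, measured 6.17, 7.29 and 5.71 CPM in the MUTZ-1 libraries and 0.674, 1.03 and 0.517 CPM in the SKM-1 libraries (log2 difference 3.09 ± 0.24 SE, adjusted p = 1.99e-28). CEBPB, the factor of activated myeloid cells, measured 28.2 ± 0.8995 CPM in MUTZ-1 and 40.6 ± 2.605 CPM in SKM-1 (log2 difference -0.52 ± 0.07 SE, adjusted p = 1.19e-13). CEBPE and KLF4, which mark late granulocytes and monocytes, were under 0.2 CPM in both lines. MITF, the factor of mast cells, osteoclasts and melanocytes, measured 44.3 ± 1.49 CPM in SKM-1 and 0.325 ± 0.0796 CPM in MUTZ-1 (log2 difference -7.05 ± 0.15 SE, adjusted p = 7.39e-109).

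Among T and NK factors, 2 of 11 listed genes were at least 2-fold higher in MUTZ-1 and 3 in SKM-1 (median log2 difference -0.96 over the 7 tested). EOMES had no count in either line and BCL11B stood at 0.0189 against 0.0187 CPM. TCF7 measured 38.6 ± 2.51 CPM in SKM-1 and 4.43 ± 0.201 CPM in MUTZ-1, and GATA3 3.19 ± 0.717 and 0.0566 ± 0.0566 CPM. Among factors of stem cells and leukemia, 11 of 22 listed genes were at least 2-fold higher in SKM-1 and 6 in MUTZ-1 (median log2 difference -3.67 over the 19 tested). HOXB9 measured 64.5, 69.7 and 70.9 CPM in the SKM-1 libraries and 0, 0.119 and 0.0566 CPM in the MUTZ-1 libraries (ratio 1187, 95% interval 406 to 5758, adjusted p = 4.13e-135), and ERG, an ETS factor of stem and endothelial cells, 60.4 ± 1.83 and 0.0765 ± 0.0318 CPM (log2 difference -9.49 ± 0.19 SE, adjusted p = 2.03e-116). HMGA2, a chromatin protein of fetal cells, measured 18.2 ± 1.25 CPM in SKM-1 and had no count in MUTZ-1 (at least 316-fold higher in SKM-1, adjusted p = 5.47e-73). HOXA5 and LIN28B were higher in MUTZ-1, at 8.72 against 0.634 and 126 against 25.3 CPM, and HOXB4 measured 16.4 ± 1.27 CPM in MUTZ-1 and 16.3 ± 1.45 CPM in SKM-1 without a call (adjusted p = 0.9703).

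Surface antigens followed the same division as the factors. Of the B-lineage surface antigens, 28 of 30 listed genes were at least 2-fold higher in MUTZ-1 and 0 in SKM-1 (median log2 difference 8.42 over the 29 tested, 7.30 with bounds). The listed genes summed to 5407 to 5435 CPM in the MUTZ-1 libraries and to 104 to 114 CPM in the SKM-1 libraries. CD79A and CD79B, the signalling chains of the B-cell receptor, measured 368 ± 4.13 and 630.0 ± 15.5 CPM in MUTZ-1 against 1.305 ± 0.09903 and 0.672 ± 0.301 CPM in SKM-1 (log2 differences 8.13 and 9.86). MS4A1, which encodes CD20, measured 187, 191 and 185 CPM in the MUTZ-1 libraries and 0, 0 and 0.2298 CPM in the SKM-1 libraries (log2 difference 11.16 ± 0.12 SE, adjusted p = 4.25e-159). CD22, an inhibitory lectin of B cells, measured 214 ± 2.89 CPM in MUTZ-1 and 1.36 ± 0.0927 CPM in SKM-1. CD24, present on early B cells and on other cells, was detected in both lines at 262 ± 1.79 CPM in MUTZ-1 and 27.2 ± 1.900 CPM in SKM-1. CR1 did not pass the filter, and SEMA4D, which most leukocytes carry, differed by a log2 of 0.93.

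Genes of antibody gene rearrangement were detected in MUTZ-1. 7 of 11 listed genes were at least 2-fold higher in MUTZ-1 and 0 in SKM-1 (median log2 difference 7.15 over the 8 tested, 6.67 with bounds), and 3 listed immunoglobulin constant region genes are not in the table. RAG1, a subunit of the recombinase, measured 11.04, 11.6 and 13.3 CPM in the MUTZ-1 libraries and 5.84, 7.65 and 8.27 CPM in the SKM-1 libraries (log2 difference 0.73), and RAG2, its partner, 35.9, 38.3 and 37.8 CPM in the MUTZ-1 libraries and 0.281, 0.217 and 0.0575 CPM in the SKM-1 libraries (log2 difference 7.59 ± 0.17 SE, adjusted p = 4.17e-108). The surrogate light chain genes VPREB1 and IGLL1, which early B cells use, stood at 5.72, 5.14 and 5.77 CPM and 6.51, 6.03 and 7.297 CPM in the MUTZ-1 libraries. DNTT, which adds bases at the joints, was at 0.247 ± 0.1795 CPM. BCL6, a factor of germinal center B cells, measured 523 ± 7.76 CPM in MUTZ-1 and 32.1 ± 0.619 CPM in SKM-1 (log2 difference 4.03 ± 0.03 SE, adjusted p = 4.21e-192). IGLL5 measured 675 ± 91.3 CPM in MUTZ-1 and 0.879 ± 0.466 CPM in SKM-1, a value that is uncertain because the gene shares sequence with the lambda light chain locus.

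In SKM-1 the membrane proteins of red cells took that place. 22 of 24 listed genes were at least 2-fold higher in SKM-1 and 0 in MUTZ-1 (median log2 difference -6.35 over the 24 tested, -5.57 with bounds), and the listed genes summed to 2646 to 2672 CPM in SKM-1 and to 1031 to 1053 CPM in MUTZ-1, where TFRC alone held 736 ± 12.2 CPM. RHAG, the scaffold of the Rh proteins, measured 186, 179 and 187 CPM in the SKM-1 libraries and 0, 0.179 and 0.509 CPM in the MUTZ-1 libraries (log2 difference -9.60 ± 0.10 SE, adjusted p = 2.11e-148). CD36, a fatty acid and thrombospondin receptor found on early red cells, platelets and monocytes, measured 915, 906 and 931 CPM in the SKM-1 libraries and 0.679, 0 and 0.792 CPM in the MUTZ-1 libraries (log2 difference -10.82 ± 0.07 SE, adjusted p = 3.55e-63). The glycophorin genes GYPB and GYPE averaged 9.78 and 17.4 CPM in SKM-1. They are close copies of each other, as are RHD and RHCE, and the split of reads among them is uncertain. Of the late genes of the red cell membrane, SLC4A1, the anion exchanger band 3, reached 2.93 ± 0.459 CPM in SKM-1 and EPB42 1.12 ± 0.201 CPM. TFRC, the transferrin receptor, and EPB41, protein 4.1, were expressed in both lines, at log2 differences of 0.80 and -0.79.

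Among the globins, embryonic and fetal chains were high in SKM-1 and the adult beta chain was not. 9 of 11 listed genes were at least 2-fold higher in SKM-1 and 0 in MUTZ-1 (median log2 difference -9.11 over the 10 tested, -8.76 with bounds). HBE1, the embryonic epsilon chain, measured 983, 955 and 976 CPM in the SKM-1 libraries and 0.3397, 0.956 and 1.41 CPM in the MUTZ-1 libraries (log2 difference -10.06 ± 0.06 SE, adjusted p = 8.59e-116). HBZ, the embryonic zeta chain, measured 123, 126 and 132 CPM in the SKM-1 libraries and 0.0566, 0.179 and 0.679 CPM in the MUTZ-1 libraries (log2 difference -8.66 ± 0.24 SE, adjusted p = 2.79e-10). The fetal gamma chains HBG1 and HBG2 measured 149.7 ± 10.5 and 312 ± 13.4 CPM in SKM-1 against 0.253 ± 0.154 and 0.519 ± 0.283 CPM in MUTZ-1, and HBB, the adult beta chain, had 0, 0.0543 and 0.0575 CPM in the SKM-1 libraries and no count in MUTZ-1. On the scale of FPKM, which divides by gene length, HBE1 stood at 1644 FPKM in SKM-1, HBG2 at 560.5, HBG1 at 269, HBZ at 168, HBA2 at 48.97, HBA1 at 42.9, HBD at 6.53 and HBB at 0.0625. The pairs HBG1 and HBG2, and HBA1 and HBA2, are near-identical, so their split is uncertain. AHSP, which holds free alpha chains, stood at 2.83 ± 0.888 CPM.

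Platelet genes were partly detected. 5 of 18 listed genes were at least 2-fold higher in SKM-1 and 2 in MUTZ-1 (median log2 difference -6.75 over the 8 tested, -5.55 with bounds). ITGA2B, the alpha chain of the fibrinogen receptor, measured 15.8, 16.4 and 16.1 CPM in the SKM-1 libraries and 0.113, 0.299 and 0.113 CPM in the MUTZ-1 libraries (log2 difference -6.48 ± 0.25 SE, adjusted p = 1.32e-65), and its partner ITGB3 0.562, 1.68 and 0.919 CPM in the SKM-1 libraries and 2.604, 1.67 and 1.24 CPM in the MUTZ-1 libraries. GP1BB measured 30.7 ± 1.94 CPM in SKM-1, but GP1BA, with which it forms the receptor for von Willebrand factor, had no count in any of the 6 libraries. PLEK and CD9, which B cells also express, were the 2 listed genes higher in MUTZ-1, at 78.4 against 2.403 and 43.8 against 0.2403 CPM.

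Monocyte and granulocyte markers were low in both lines. SKM-1 is generally described as a line from a monocytic leukemia that followed myelodysplastic syndrome. 5 of 25 listed genes were at least 2-fold higher in SKM-1 and 5 in MUTZ-1 (median log2 difference 1.36 over the 10 tested), and the 25 genes summed to 100.2 to 104 CPM in SKM-1 and 117 to 124 CPM in MUTZ-1. CD14, the defining receptor of monocytes, measured 0.225, 0.109 and 0 CPM in the SKM-1 libraries and 0.396, 0.299 and 0.283 CPM in the MUTZ-1 libraries. CSF1R, the receptor for macrophage colony stimulating factor, measured 0.337, 0.163 and 0.2298 CPM in the SKM-1 libraries and 0.226, 0.179 and 0.226 CPM in the MUTZ-1 libraries, and both genes failed the filter on low counts. FCGR1A stood at 0.0187 CPM in SKM-1, and CD163, S100A12 and CD300E had no count in any of the 6 libraries. FCGR2A and CD68, which many cells express, accounted for most of the SKM-1 sum, at 52.2 and 31.7 CPM. LYZ, lysozyme, measured 9.72, 9.01 and 8.62 CPM in the SKM-1 libraries and 2.32, 1.55 and 0.226 CPM in the MUTZ-1 libraries (log2 difference -2.73 ± 0.32 SE, adjusted p = 2.97e-06). In MUTZ-1, CTSS, a protease of antigen-presenting cells, held 82.8 ± 2.93 CPM.

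MPO, myeloperoxidase, had 0 CPM in MUTZ-1 and 0.0181 CPM in SKM-1. Of the granulocyte genes, 4 of 18 listed genes were at least 2-fold higher in SKM-1 and 1 in MUTZ-1 (median log2 difference -1.65 over the 8 tested). CD33, a lectin of myeloid progenitors, was higher in SKM-1, at 8.48, 9.17 and 7.99 CPM in the SKM-1 libraries and 0.1698, 0.179 and 0.226 CPM in the MUTZ-1 libraries (log2 difference -5.42 ± 0.25 SE, adjusted p = 2.55e-54). CEACAM8 and DEFA4 had no count in any library, and without MUTZ-1 replicate 3 the count in MUTZ-1 was 2. Among progenitor antigens, 3 of 14 listed genes were at least 2-fold higher in SKM-1 and 0 in MUTZ-1 (median log2 difference -1.06 over the 5 tested, or 0.56 among genes with at least 5 CPM). CD34 measured 0.0199 against 0 CPM, FLT3 0.0398 against 0.0564 CPM and PROM1 0.0765 against 0.201 CPM in MUTZ-1 against SKM-1. KIT, the receptor for stem cell factor, was the exception at 49.7, 51.1 and 47.5 CPM in the SKM-1 libraries and 0.113, 0.0597 and 0 CPM in the MUTZ-1 libraries (ratio 858, 95% interval 293 to 4164, adjusted p = 7.05e-109). IL3RA was not analysed here, and the low value of CD99, in the region shared by X and Y, is uncertain because reads there can match more than 1 place. CD14, CSF1R, MPO and CD34 were thus below 0.5 CPM in every library.

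T and NK cell antigens were also low. 5 of 21 listed genes were at least 2-fold higher in SKM-1 and 2 in MUTZ-1 (median log2 difference -4.42 over the 9 tested, -3.13 with bounds, but 4.99 among genes with at least 5 CPM), with sums of 57.9 to 60.2 CPM in MUTZ-1 and 20.9 to 24.02 CPM in SKM-1. CD3D, CD3E and CD3G measured 0 against 0.504, 0.2902 against 0.0187 and 0.0377 against 0 CPM. LCK, a kinase of T cells that some B cells express, held most of the MUTZ-1 sum at 47.1, 47.4 and 46.6 CPM in the MUTZ-1 libraries and 0, 0.163 and 0 CPM in the SKM-1 libraries (ratio 841, 95% interval 287 to 4079, adjusted p = 2.27e-113). CD4 measured 10.00, 9.01 and 12.4 CPM in the SKM-1 libraries and 0.849, 0.597 and 0 CPM in the MUTZ-1 libraries (log2 difference -4.42 ± 0.35 SE, adjusted p = 1.67e-11).

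Genes shared by leukocytes in general were higher in MUTZ-1. 19 of 22 listed genes were at least 2-fold higher in MUTZ-1 and 1 in SKM-1 (median log2 difference 3.51 over the 22 tested), with sums of 6112 to 6159.7 CPM and 471 to 485 CPM. PTPRC, which encodes CD45, measured 351, 351 and 358 CPM in the MUTZ-1 libraries and 48.1, 50.5 and 47.5 CPM in the SKM-1 libraries (log2 difference 2.86 ± 0.03 SE, adjusted p = 4.41e-142). CORO1A, a regulator of actin in blood cells, measured 405 ± 2.900 CPM in MUTZ-1 and 6.12 ± 0.357 CPM in SKM-1 (log2 difference 6.05 ± 0.05 SE, adjusted p = 9.15e-194). LSP1, a lymphocyte cytoskeletal protein, measured 291 ± 4.44 CPM in MUTZ-1 and 0.169 ± 0.102 CPM in SKM-1 (log2 difference 10.70 ± 0.09 SE, adjusted p = 2.96e-166). CD44, the hyaluronan receptor, was the 1 member at least 2-fold higher in SKM-1, at 6.71 ± 0.441 against 0.463 ± 0.359 CPM. Without MUTZ-1 replicate 2 or 3, or without SKM-1 replicate 2, PTPN6 (log2 difference -0.97) also passed 2-fold and the count in SKM-1 was 2. The pan-leukocyte genes PTPRC, CD53 and LAPTM5 were still detected in SKM-1, at 48.1, 50.5 and 47.5, 31.4, 31.8 and 28.8 and 30.8, 35.99 and 31.03 CPM.

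Antigen presentation differed most in MHC class II. 13 of 16 listed genes were at least 2-fold higher in MUTZ-1 and 0 in SKM-1 (median log2 difference 7.51 over the 16 tested). CIITA, the coactivator that switches class II genes on, measured 107, 114 and 112 CPM in the MUTZ-1 libraries and 0.112, 0.109 and 0.172 CPM in the SKM-1 libraries (log2 difference 9.65 ± 0.13 SE, adjusted p = 2.15e-151). HLA-DRA measured 255, 258 and 245 CPM in the MUTZ-1 libraries and 0.281, 0.326 and 0.345 CPM in the SKM-1 libraries (log2 difference 9.61 ± 0.09 SE, adjusted p = 5.39e-182). CD74, the invariant chain, measured 1312 ± 14.4 CPM in MUTZ-1 and 1.603 ± 0.761 CPM in SKM-1 (log2 difference 9.67 ± 0.06 SE, adjusted p = 5.08e-42). RFX5 and RFXANK, which bind class II promoters in all cells, differed by log2 values of 0.72 and 0.40. Reads of the HLA-DRB genes may be split among close copies.

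For class I, 12 of 18 listed genes were at least 2-fold higher in MUTZ-1 and 1 in SKM-1 (median log2 difference 1.65 over the 17 tested). HLA-B measured 580.2, 591 and 572 CPM in the MUTZ-1 libraries and 2.81, 2.33 and 2.13 CPM in the SKM-1 libraries (log2 difference 7.90 ± 0.05 SE, adjusted p = 3.17e-209). HLA-C measured 342, 356 and 352 CPM in the MUTZ-1 libraries and 2.64, 3.31 and 2.87 CPM in the SKM-1 libraries (log2 difference 6.89 ± 0.06 SE, adjusted p = 1.54e-192). HLA reads of alleles that differ from the reference can be lost in alignment, and this was not tested. B2M, the shared light chain, measured 908 ± 12.03 CPM in MUTZ-1 and 408 ± 3.96 CPM in SKM-1, and PSMB8, a subunit of the immunoproteasome, 88.5 ± 4.63 CPM in MUTZ-1 and 1.51 ± 0.0142 CPM in SKM-1 (log2 difference 5.87 ± 0.09 SE, adjusted p = 4.26e-134).

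Markers of cells outside the blood were examined because SKM-1 showed more genes at 1 CPM or more. In all, 10198 genes reached 1 CPM in both lines, 582 in MUTZ-1 only and 2220 in SKM-1 only. Of the epithelial genes, 5 of 13 listed genes were at least 2-fold higher in SKM-1 and 0 in MUTZ-1, or 5 of the 5 tested. The keratins KRT8 and KRT18, which pair in simple epithelia, measured 196, 188 and 191 CPM in the SKM-1 libraries and 0.113, 0.0597 and 0.339 CPM in the MUTZ-1 libraries (log2 difference -10.05 ± 0.10 SE, adjusted p = 2.52e-156) and 146, 142 and 143 CPM in the SKM-1 libraries and 0.0566, 0 and 0.1697 CPM in the MUTZ-1 libraries (log2 difference -10.74 ± 0.12 SE, adjusted p = 4.33e-163). CDH1, E-cadherin, and KRT7 were at 0.0187 and 0 CPM in SKM-1, and EPCAM, which red cell precursors also carry, at 14.1 CPM. The 13 genes summed to 375 to 385 CPM in SKM-1 and 0.3397 to 0.905 CPM in MUTZ-1.

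Of the fibroblast and matrix genes, 10 of 15 listed genes were at least 2-fold higher in SKM-1 and 0 in MUTZ-1 (median log2 difference -4.30 over the 11 tested, -4.15 with bounds), with sums of 144 to 146 CPM and 4.81 to 5.56 CPM in SKM-1 and MUTZ-1. With log2(FPKM + 1), which shrinks differences of low genes, 4 of them passed 2-fold, and among genes with at least 5 CPM over all libraries 2. COL3A1, a fibrillar collagen, measured 45.01, 44.7 and 48.8 CPM in the SKM-1 libraries and 0, 0 and 0.0566 CPM in the MUTZ-1 libraries (ratio 2403, 95% interval 431 to 94945, adjusted p = 2.61e-104). FN1, fibronectin, measured 65.5, 59.7 and 58.6 CPM in the SKM-1 libraries and 0.113, 0.239 and 0.1697 CPM in the MUTZ-1 libraries (log2 difference -8.41 ± 0.14 SE, adjusted p = 2.32e-129). COL1A2 measured 2.65 CPM in SKM-1, and DCN, LUM and POSTN, which define fibroblasts, 0.0922, 0.278 and 0 CPM. Of the endothelial genes, 2 of 10 listed genes were at least 2-fold higher in SKM-1 and 1 in MUTZ-1, with KDR and ROBO4 at 0 in all 6 libraries. Of the neuronal genes, 4 of 12 listed genes were at least 2-fold higher in SKM-1 and 2 in MUTZ-1, with SNAP25, a protein of vesicle fusion, at 46.03 against 0.0576 CPM in SKM-1 against MUTZ-1 and TUBB3, a tubulin, at 155 against 9.87 CPM in MUTZ-1 against SKM-1. Whether cells of another type were present in the SKM-1 cultures was not tested.

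**Figure D2:**
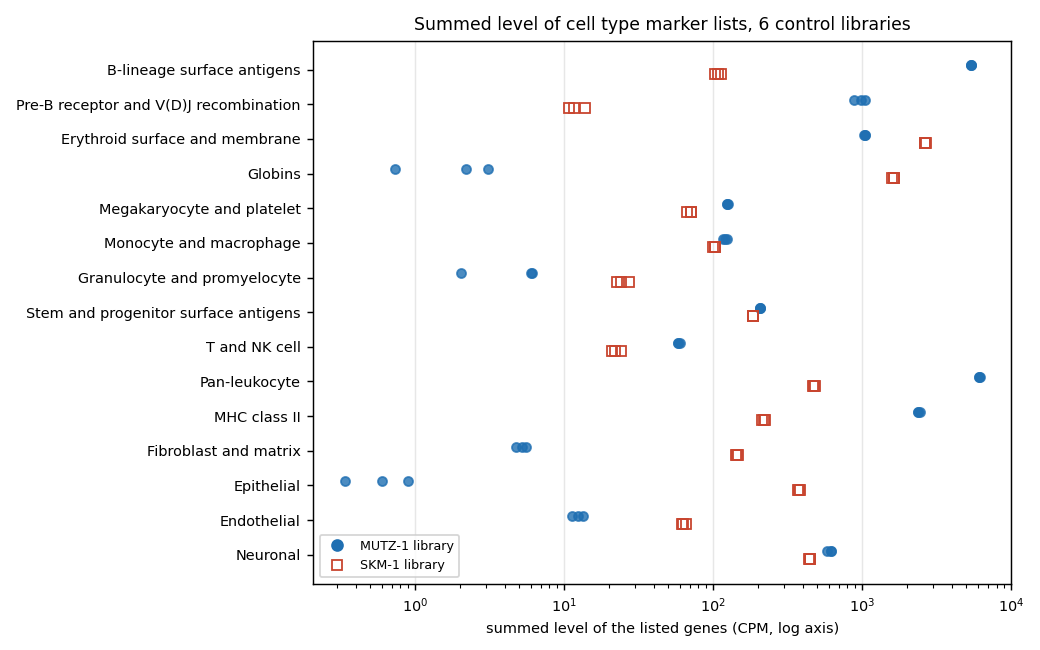
Summed level of each list of cell type markers in CPM on a log axis, with 1 point per library (filled circles MUTZ-1, open squares SKM-1). B-lineage, pan-leukocyte and MHC class II sums are higher in all 3 MUTZ-1 libraries, erythroid, globin, epithelial and fibroblast sums in all 3 SKM-1 libraries, and the monocyte sums lie close together.

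Signalling genes were examined pathway by pathway. The B-cell receptor signals through LYN, SYK and BTK to phospholipase C and, through BCL10 and MALT1, to NF-kB. 15 of 21 listed genes were at least 2-fold higher in MUTZ-1 and 1 in SKM-1 (median log2 difference 3.54 over the 21 tested). SYK, the first kinase to bind the receptor, measured 424, 433 and 437 CPM in the MUTZ-1 libraries and 36.97, 36.1 and 32.2 CPM in the SKM-1 libraries (log2 difference 3.62 ± 0.03 SE, adjusted p = 1.72e-180). BTK measured 136 ± 1.17 CPM in MUTZ-1 and 39.4 ± 1.32 CPM in SKM-1 (log2 difference 1.78 ± 0.04 SE, adjusted p = 1.78e-104), so that both lines expressed it. BLK, a SRC family kinase of B cells, measured 359, 366 and 363 CPM in the MUTZ-1 libraries and 0.506, 0.434 and 0.747 CPM in the SKM-1 libraries (log2 difference 9.32 ± 0.07 SE, adjusted p = 5.12e-197). BLNK, the adaptor that SYK phosphorylates, measured 75.97, 75.1 and 77.3 CPM in the MUTZ-1 libraries and 0.225, 0.109 and 0.115 CPM in the SKM-1 libraries (log2 difference 8.93 ± 0.14 SE, adjusted p = 6.71e-134). RASGRP3, which activates RAS downstream of the receptor, measured 157 ± 5.92 CPM in MUTZ-1 and 1.91 ± 0.546 CPM in SKM-1. FYN was the 1 member at least 2-fold higher in SKM-1, at 44.00 ± 0.648 CPM in MUTZ-1 and 103 ± 2.78 CPM in SKM-1 (log2 difference -1.23 ± 0.04 SE, adjusted p = 5.14e-71).

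Of the NF-kB pathway, 14 of 18 listed genes were at least 2-fold higher in MUTZ-1 and 0 in SKM-1 (median log2 difference 1.57 over the 18 tested). RELB, the transcription factor of the alternative branch, measured 110.2, 112 and 107 CPM in the MUTZ-1 libraries and 4.44, 4.29 and 3.62 CPM in the SKM-1 libraries (log2 difference 4.73 ± 0.07 SE, adjusted p = 6.32e-126). CD40, a receptor that drives that branch in B cells, measured 33.8 ± 1.99 CPM in MUTZ-1 and 0.597 ± 0.213 CPM in SKM-1 (log2 difference 5.81 ± 0.15 SE, adjusted p = 5.48e-98). BIRC3, a target and regulator of the pathway, measured 199.9 ± 2.76 CPM in MUTZ-1 and 7.36 ± 0.537 CPM in SKM-1 (log2 difference 4.76 ± 0.05 SE, adjusted p = 1.74e-164). NFKBIA, the inhibitor that is itself an early target, measured 18.9, 18.3 and 16.5 CPM in the MUTZ-1 libraries and 16.7, 15.9 and 16.3 CPM in the SKM-1 libraries, which overlapped and was not called (adjusted p = 0.121). RELA differed by a log2 of 0.55.

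**Figure D3:**
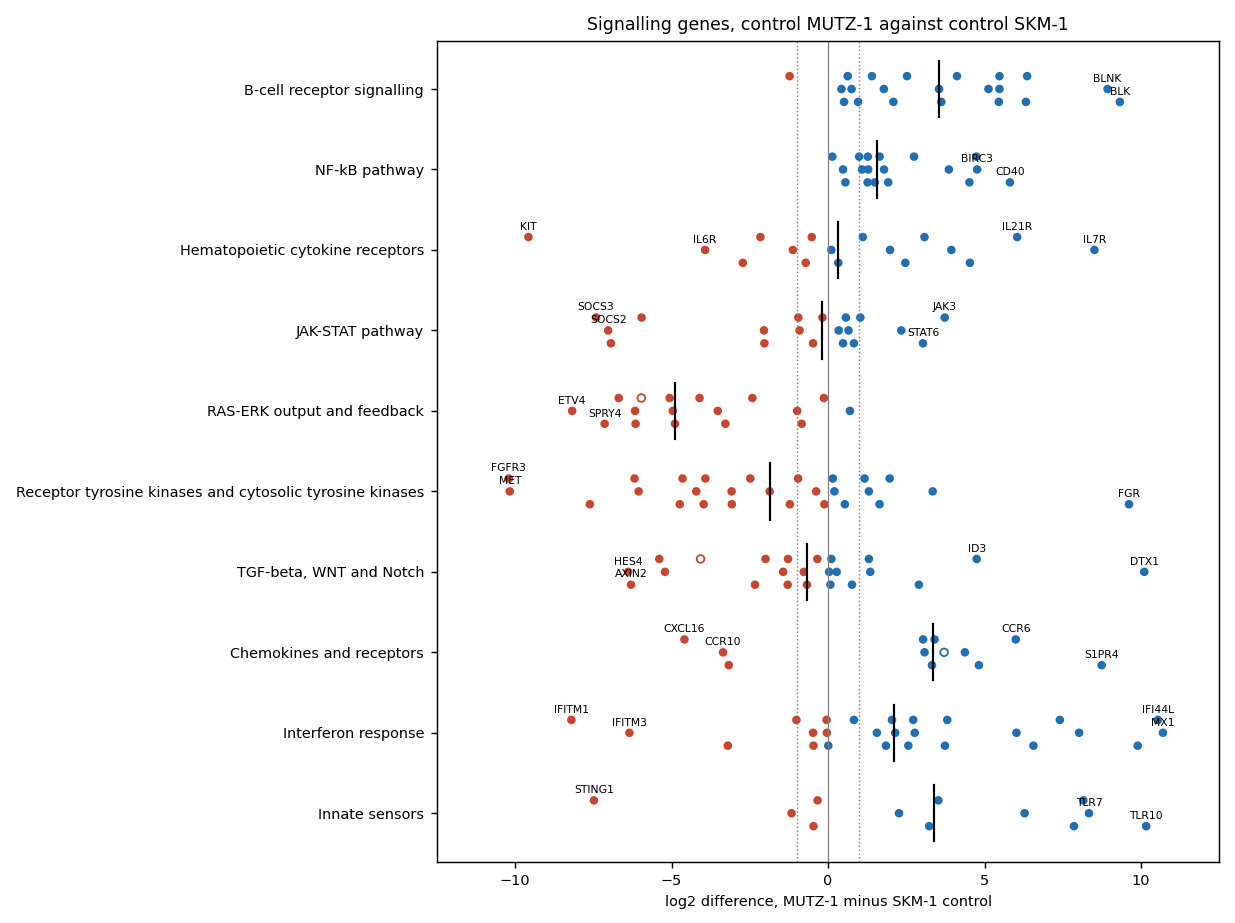
Log2 difference, MUTZ-1 minus SKM-1, of each tested gene in 10 signalling lists, with a bar at the median, dotted lines at 2-fold and open circles for genes without a count in 1 line, placed at their bound. Of the 18 NF-kB genes, 14 lie beyond 2-fold on the right and 0 on the left, all tested RAS-ERK output genes except DUSP5 lie left of 0 with 13 beyond 2-fold, and the JAK-STAT genes spread to both sides with SOCS2, SOCS3 and CISH to the left.

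Cytokine receptors differed in both directions. 8 of 26 listed genes were at least 2-fold higher in MUTZ-1 and 5 in SKM-1 (median log2 difference 0.33 over the 17 tested). Over all genes tested the shares were 16.1% and 29.6%, so the count in SKM-1 does not stand out. IL7R, the receptor of lymphoid precursors, measured 29.4, 30.3 and 29.9 CPM in the MUTZ-1 libraries and 0, 0.0543 and 0.172 CPM in the SKM-1 libraries (log2 difference 8.51 ± 0.21 SE, adjusted p = 2.80e-100). IL21R, a receptor of mature B cells, measured 60.6 ± 3.27 CPM in MUTZ-1 and 0.912 ± 0.274 CPM in SKM-1 (log2 difference 6.04 ± 0.12 SE, adjusted p = 5.46e-120). CSF2RB, the beta chain shared by the receptors for interleukin 3 and GM-CSF, was higher in MUTZ-1 as well, at 18.7 against 0.7998 CPM. EPOR, the erythropoietin receptor, measured 13.4, 12.2 and 15.00 CPM in the SKM-1 libraries and 6.17, 6.45 and 5.996 CPM in the MUTZ-1 libraries (log2 difference -1.12 ± 0.11 SE, adjusted p = 5.18e-20), a small difference beside that of the erythroid factors. The receptor for granulocyte colony stimulating factor, CSF3R, was at 0.136 against 0.0947 CPM.

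The JAK-STAT genes differed in both directions, in shares near those of all genes tested (29.6% in SKM-1 and 16.1% in MUTZ-1). 6 of 20 listed genes were at least 2-fold higher in SKM-1 and 4 in MUTZ-1 (median log2 difference -0.18 over the 19 tested). CISH, SOCS2 and SOCS3, negative regulators that STAT5 is known to induce, were higher in SKM-1. CISH measured 45.2, 45.6 and 45.97 CPM in the SKM-1 libraries and 0.283, 0.239 and 0.566 CPM in the MUTZ-1 libraries (log2 difference -6.94 ± 0.14 SE, adjusted p = 1.35e-117), SOCS2 28.6, 32.8 and 31.4 CPM in the SKM-1 libraries and 0.0566, 0.299 and 0.339 CPM in the MUTZ-1 libraries (log2 difference -7.03 ± 0.16 SE, adjusted p = 4.17e-103) and SOCS3 7.75, 7.49 and 8.102 CPM in the SKM-1 libraries and 0, 0.119 and 0 CPM in the MUTZ-1 libraries (ratio 203, 95% interval 55.7 to 1678, adjusted p = 6.26e-46). STAT5A itself measured 129.8, 130.5 and 138 CPM in the SKM-1 libraries and 1.698, 2.69 and 2.04 CPM in the MUTZ-1 libraries (log2 difference -5.96 ± 0.07 SE, adjusted p = 3.31e-148). JAK2, the kinase of the erythropoietin receptor, measured 24.4, 26.9 and 27.8 CPM in the SKM-1 libraries and 6.74, 4.66 and 7.64 CPM in the MUTZ-1 libraries (log2 difference -2.05 ± 0.09 SE, adjusted p = 1.27e-48). STAT6 and JAK3, which carry interleukin 4 signals in lymphocytes, were higher in MUTZ-1 at 241 ± 4.62 CPM in MUTZ-1 and 29.5 ± 1.38 CPM in SKM-1 (log2 difference 3.03 ± 0.04 SE, adjusted p = 2.92e-153) and 6.01 ± 0.335 CPM in MUTZ-1 and 0.447 ± 0.109 CPM in SKM-1 (log2 difference 3.73 ± 0.27 SE, adjusted p = 1.12e-30). SOCS1, a negative regulator, was also higher there, at 10.4 against 2.06 CPM.

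Genes that ERK signalling induces, many of which restrain it in turn, were higher in SKM-1. 13 of 18 listed genes were at least 2-fold higher in SKM-1 and 0 in MUTZ-1 (median log2 difference -4.89 over the 17 tested). ETV4, an ETS factor that follows ERK activity, measured 19.3, 19.9 and 17.1 CPM in the SKM-1 libraries and 0, 0.0597 and 0.113 CPM in the MUTZ-1 libraries (ratio 326, 95% interval 111 to 1584, adjusted p = 4.25e-84). DUSP6, the phosphatase of ERK, measured 4.66, 3.37 and 3.39 CPM in the SKM-1 libraries and 0.226, 0 and 0.113 CPM in the MUTZ-1 libraries (log2 difference -4.96 ± 0.42 SE, adjusted p = 2.42e-24). SPRY4 and SPRY1, which restrain receptor kinases, measured 6.43 and 3.59 CPM in SKM-1, with SPRY1 at 0 in MUTZ-1 (at least 62.5-fold higher in SKM-1, adjusted p = 2.26e-27). CCND1, cyclin D1, measured 11.3, 13.03 and 13.5 CPM in the SKM-1 libraries and 0, 0.0597 and 0.283 CPM in the MUTZ-1 libraries (log2 difference -6.69 ± 0.28 SE, adjusted p = 7.18e-59). DUSP5 was the member in the other direction, at 8.83 ± 0.203 CPM in MUTZ-1 and 5.43 ± 0.858 CPM in SKM-1 (log2 difference 0.70 ± 0.14 SE, adjusted p = 2.23e-06).

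Among tyrosine kinases, 15 of 30 listed genes were at least 2-fold higher in SKM-1 and 6 in MUTZ-1 (median log2 difference -1.87 over the 27 tested). MET, the receptor for hepatocyte growth factor, measured 98.9, 97.3 and 94.00 CPM in the SKM-1 libraries and 0.113, 0 and 0.113 CPM in the MUTZ-1 libraries (log2 difference -10.17 ± 0.16 SE, adjusted p = 2.36e-135). FGFR3 measured 32.5, 30.99 and 30.1 CPM in the SKM-1 libraries and 0.0566, 0 and 0 CPM in the MUTZ-1 libraries (ratio 1625, 95% interval 291 to 64217, adjusted p = 3.88e-103). EPHA2, an ephrin receptor, measured 26.9, 27.8 and 28.3 CPM in the SKM-1 libraries and 0.1698, 0.119 and 0.113 CPM in the MUTZ-1 libraries (log2 difference -7.61 ± 0.23 SE, adjusted p = 2.78e-82). ABL1 measured 141 ± 5.88 CPM in MUTZ-1 and 127 ± 1.62 CPM in SKM-1, a log2 difference of 0.15 that lost its call with library totals or without MUTZ-1 replicate 3 (0.01 and 0.06), and BCR 259 ± 8.100 CPM in MUTZ-1 and 105 ± 1.63 CPM in SKM-1 (log2 difference 1.30 ± 0.03 SE, adjusted p = 2.61e-105). Fusion transcripts cannot be read from counts per gene. FGR, a SRC family kinase of myeloid and B cells, was higher in MUTZ-1, at 49.9, 49.3 and 49.4 CPM in the MUTZ-1 libraries and 0, 0.109 and 0.0575 CPM in the SKM-1 libraries (ratio 885, 95% interval 303 to 4295, adjusted p = 8.29e-120).

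For TGF-beta, WNT and Notch, 10 of 24 listed genes were at least 2-fold higher in SKM-1 and 5 in MUTZ-1 (median log2 difference -0.67 over the 23 tested). AXIN2, a feedback gene of WNT signalling, measured 468, 468 and 468 CPM in the SKM-1 libraries and 6.28, 6.03 and 5.54 CPM in the MUTZ-1 libraries (log2 difference -6.29 ± 0.05 SE, adjusted p = 2.02e-195). JAG1, a Notch ligand, measured 55.1 ± 2.44 against 1.31 ± 0.0576 CPM (log2 difference -5.39 ± 0.12 SE, adjusted p = 2.98e-107). DTX1, a Notch-responsive gene of B cells, measured 703, 702 and 707 CPM in the MUTZ-1 libraries and 0.562, 0.3799 and 0.977 CPM in the SKM-1 libraries (log2 difference 10.10 ± 0.06 SE, adjusted p = 2.27e-217). ID3, an inhibitor of TCF3, measured 315, 325 and 311 CPM in the MUTZ-1 libraries and 13.9, 10.04 and 11.5 CPM in the SKM-1 libraries (log2 difference 4.75 ± 0.05 SE, adjusted p = 2.40e-169). Thus DTX1 and JAG1, a target and a ligand of the same pathway, were high in different lines.

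Of chemokine genes and receptors, 9 of 19 listed genes were at least 2-fold higher in MUTZ-1 and 3 in SKM-1 (median log2 difference 3.36 over the 12 tested). The count in MUTZ-1 was 15 without the filter on low counts, 14 with DESeq2 and 5 with log2(FPKM + 1). CXCR4, the marrow homing receptor, measured 504, 506 and 501 CPM in the MUTZ-1 libraries and 63.8, 58.2 and 62.3 CPM in the SKM-1 libraries (log2 difference 3.03 ± 0.03 SE, adjusted p = 4.28e-176), and CCR7, which guides lymphocytes to lymph nodes, 2.46 against 0.112 CPM. CXCR5, the receptor of B-cell follicles, was low at 0.453, 0.299 and 0.622 CPM in the MUTZ-1 libraries and without a count in SKM-1. S1PR4, a lymphocyte sphingosine receptor, measured 19.1 against 0.0383 CPM in MUTZ-1 against SKM-1 (ratio 511, 95% interval 141 to 4227, adjusted p = 4.72e-77).

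Interferon response genes were mostly higher in MUTZ-1. 16 of 27 listed genes were at least 2-fold higher in MUTZ-1 and 4 in SKM-1 (median log2 difference 2.09 over the 26 tested). MX1, an antiviral GTPase, measured 224, 231 and 231 CPM in the MUTZ-1 libraries and 0.112, 0.163 and 0.115 CPM in the SKM-1 libraries (log2 difference 10.70 ± 0.11 SE, adjusted p = 1.15e-173). IFI44L measured 93.99 ± 2.79 CPM in MUTZ-1 and 0.0564 ± 0.0575 CPM in SKM-1 (ratio 1681, 95% interval 575 to 8154, adjusted p = 2.57e-134). OAS2, a sensor of double-stranded RNA, measured 149 ± 1.53 CPM in MUTZ-1 and 0.151 ± 0.121 CPM in SKM-1 (log2 difference 9.89 ± 0.12 SE, adjusted p = 2.08e-157). IFITM1 and IFITM3, which block virus entry at membranes, were higher in SKM-1, at 0.861 ± 0.388 CPM in MUTZ-1 and 256 ± 6.65 CPM in SKM-1 (log2 difference -8.20 ± 0.07 SE, adjusted p = 2.95e-184) and 1.86 ± 0.105 CPM in MUTZ-1 and 152 ± 4.697 CPM in SKM-1 (log2 difference -6.35 ± 0.08 SE, adjusted p = 3.20e-159). OAS3, close to OAS2 on chromosome 12, was likewise higher there at 2.54 against 0.272 CPM. In the knockdown libraries the MUTZ-1 mean of MX1 was 5.87 CPM and the SKM-1 mean 0.0418 CPM, and the list counted 9 genes at least 2-fold higher in MUTZ-1 and 7 in SKM-1.

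Of innate sensors, 8 of 16 listed genes were at least 2-fold higher in MUTZ-1 and 2 in SKM-1 (median log2 difference 3.38 over the 12 tested). TLR10 and TLR7, which B cells carry, measured 115 against 0.0928 and 20.4 against 0.05597 CPM in MUTZ-1 against SKM-1 (log2 difference 10.16 ± 0.13 SE, adjusted p = 1.77e-153 for TLR10). STING1, the adaptor of cytosolic DNA sensing, measured 46.2, 42.7 and 48.8 CPM in the SKM-1 libraries and 0.226, 0.299 and 0.226 CPM in the MUTZ-1 libraries (log2 difference -7.48 ± 0.15 SE, adjusted p = 2.20e-114), while CGAS, which makes its ligand, was at 0.0577 against 0.0181 CPM.

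Genes of survival and cell cycle arrest were unequal without a common direction. In the BCL2 family, 5 of 16 listed genes were at least 2-fold higher in MUTZ-1 and 4 in SKM-1 (median log2 difference 0.39 over the 16 tested). BCL2 measured 29.1 ± 1.59 CPM in MUTZ-1 and 14.4 ± 0.983 CPM in SKM-1 (log2 difference 1.02 ± 0.08 SE, adjusted p = 3.38e-26) and MCL1 414 ± 2.72 CPM in MUTZ-1 and 969.8 ± 8.13 CPM in SKM-1 (log2 difference -1.23 ± 0.02 SE, adjusted p = 6.18e-129). BIK and HRK, which promote death, measured 29.4 against 0.186 and 50.3 against 1.97 CPM in MUTZ-1 against SKM-1. Of the cell cycle arrest and INK4 genes, 7 of 18 listed genes were at least 2-fold higher in MUTZ-1 and 6 in SKM-1 (median log2 difference 0.55 over the 17 tested, but -0.21 among genes with at least 5 CPM). CDKN1A, the cell cycle inhibitor p21, measured 125, 124 and 121 CPM in the MUTZ-1 libraries and 6.29, 4.99 and 5.98 CPM in the SKM-1 libraries (log2 difference 4.42 ± 0.06 SE, adjusted p = 2.68e-144). MDM2, a ubiquitin ligase, measured 361 ± 9.58 CPM in MUTZ-1 and 66.9 ± 2.27 CPM in SKM-1 (log2 difference 2.43 ± 0.03 SE, adjusted p = 4.79e-154). GDF15, a cytokine induced by many kinds of stress, went the other way at 36.02, 37.9 and 37.1 CPM in the SKM-1 libraries and 0, 0 and 0.1697 CPM in the MUTZ-1 libraries (ratio 643, 95% interval 219.6 to 3119, adjusted p = 3.79e-100), as did CDKN1B, the inhibitor p27, at 3.11 ± 0.446 CPM in MUTZ-1 and 90.5 ± 2.02 CPM in SKM-1 (log2 difference -4.86 ± 0.09 SE, adjusted p = 8.35e-126). CDKN2A and its neighbour MTAP, which are often lost together in leukemia, were expressed in both lines, at 113 against 18.9 and 117 against 22.8 CPM in MUTZ-1 against SKM-1.

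Most genes recurrently mutated in myelodysplastic syndrome were expressed in both lines, with 20 of the 20 listed at 5 CPM or more in MUTZ-1 and 18 in SKM-1. 6 of 20 listed genes were at least 2-fold higher in MUTZ-1 and 3 in SKM-1 (median log2 difference 0.25 over the 20 tested). The splicing factor genes SF3B1 and SRSF2 measured 775 ± 8.51 CPM in MUTZ-1 and 422 ± 2.06 CPM in SKM-1 (log2 difference 0.88 ± 0.02 SE, adjusted p = 4.39e-102) and 508 ± 5.27 CPM in MUTZ-1 and 252 ± 8.21 CPM in SKM-1 (log2 difference 1.01 ± 0.02 SE, adjusted p = 1.47e-104). TET2 and DNMT3A, which act on DNA methylation, were higher in SKM-1 at 38.4 ± 1.34 CPM in MUTZ-1 and 84.5 ± 1.54 CPM in SKM-1 and 20.7 ± 0.863 CPM in MUTZ-1 and 45.8 ± 0.642 CPM in SKM-1 (log2 differences -1.14 and -1.15). ETV6 and SETBP1 measured 80.5 against 14.1 and 5.46 against 0.557 CPM in MUTZ-1 against SKM-1. U2AF1, another splicing factor gene, has a second copy in the GRCh38 reference, and its low and scattered counts are uncertain. Levels do not show whether a gene is mutated.

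**Figure D4:**
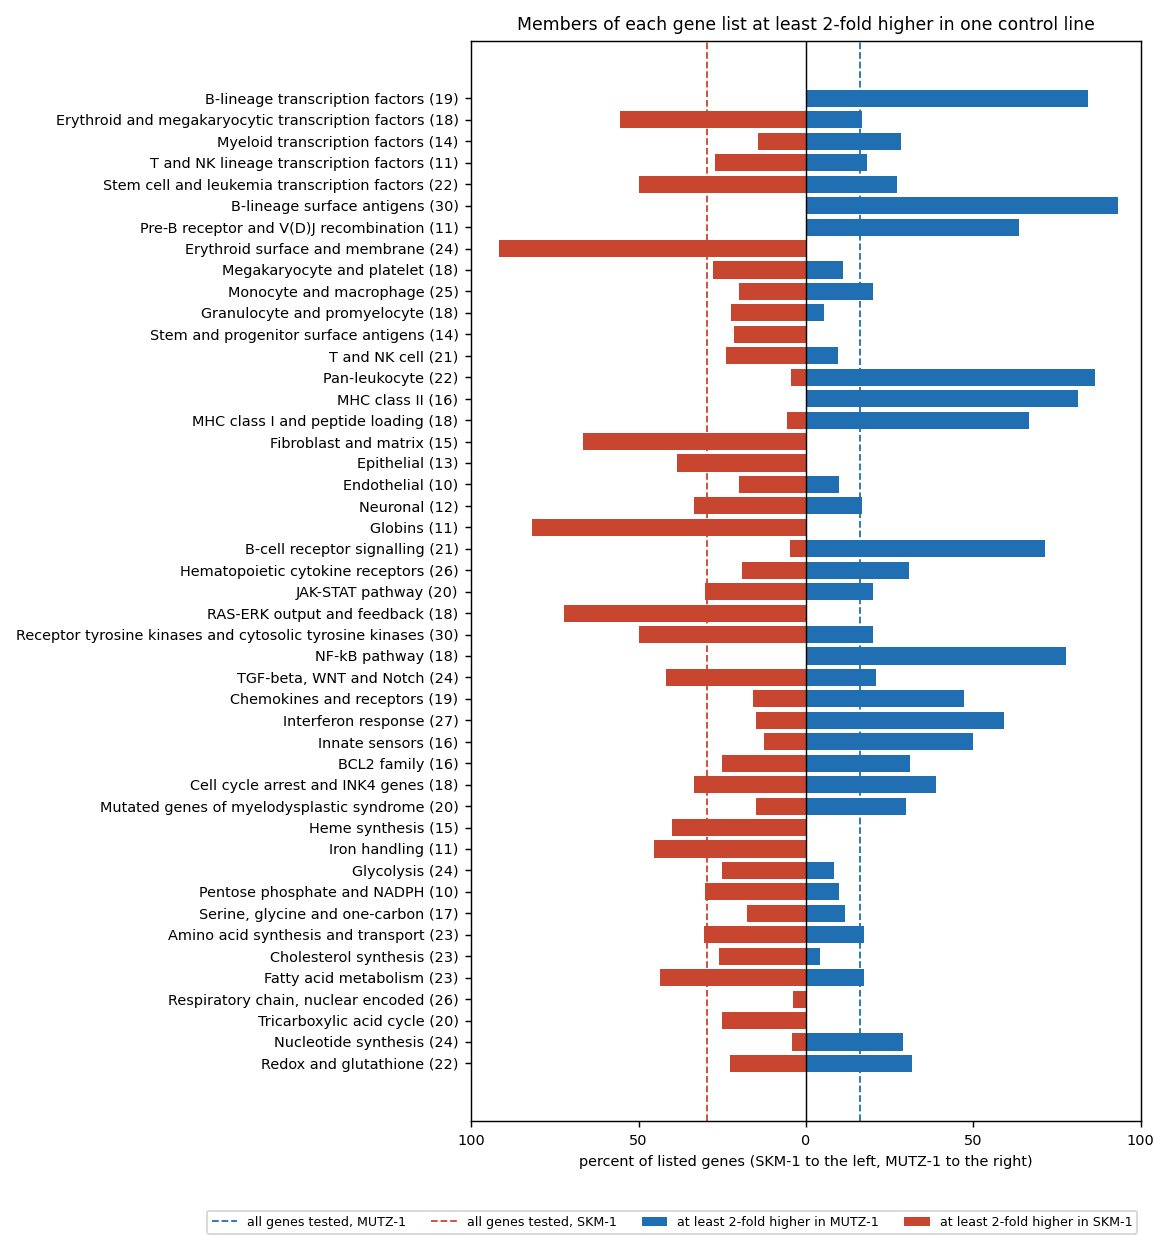
Percent of the listed genes of each of the 46 lists (number of listed genes in brackets) that were at least 2-fold higher in MUTZ-1, to the right, or in SKM-1, to the left, with dashed lines at 16.1% and 29.6% for all genes tested. Bars are shares of all listed genes, tested or not, whereas the lines are shares of tested genes only. Bars of lists with few tested genes, such as the platelet list (8 of 18 tested), are therefore short beside the lines. B-lineage, MHC class II, pan-leukocyte and NF-kB lists reach far to the right, erythroid, globin and RAS-ERK lists far to the left, and the metabolism lists stay near or inside the dashed lines except iron handling, heme synthesis and fatty acid metabolism on the left and nucleotide synthesis and redox on the right.

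Of 238 gene entries in the 12 metabolism lists, 28 were at least 2-fold higher in MUTZ-1 and 58 in SKM-1 (median log2 difference -0.23 over the 234 tested), against 88 and 55 of 227 entries in the surface antigen lists. In heme synthesis, 6 of 15 listed genes were at least 2-fold higher in SKM-1 and 0 in MUTZ-1 (median log2 difference -0.77 over the 14 tested). Beside ALAS2, CPOX and UROD, enzymes of later steps, measured 53.9 ± 3.51 and 167 ± 7.06 CPM in SKM-1 against 9.89 ± 0.449 and 51.1 ± 2.997 CPM in MUTZ-1 (log2 differences -2.45 and -1.71). BLVRA, which reduces biliverdin, measured 49.1, 51.3 and 55.7 CPM in the SKM-1 libraries and 0.226, 0.179 and 0.1697 CPM in the MUTZ-1 libraries (log2 difference -8.03 ± 0.16 SE, adjusted p = 1.60e-117). ALAS1, the enzyme of other tissues, measured 33.8 ± 0.0721 CPM in MUTZ-1 and 61.1 ± 1.24 CPM in SKM-1 (log2 difference -0.85 ± 0.05 SE, adjusted p = 1.65e-38). In iron handling, 5 of 11 listed genes were at least 2-fold higher in SKM-1 and 0 in MUTZ-1 (median log2 difference -0.94 over the 10 tested). TFR2, a second transferrin receptor of liver and red cell precursors, measured 39.9, 44.8 and 41.6 CPM in the SKM-1 libraries and 0.3397, 0.239 and 0.339 CPM in the MUTZ-1 libraries (log2 difference -7.07 ± 0.14 SE, adjusted p = 2.10e-115). SLC40A1, the iron exporter ferroportin, measured 17.1, 20.2 and 21.4 CPM in the SKM-1 libraries and 0, 0.0597 and 0.0566 CPM in the MUTZ-1 libraries (ratio 510.4, 95% interval 141 to 4219.9, adjusted p = 1.12e-87).

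Most glycolysis genes were within 2-fold between the lines, and some isoforms were divided. 6 of 24 listed genes were at least 2-fold higher in SKM-1 and 2 in MUTZ-1 (median log2 difference -0.09 over the 23 tested). Of the glucose transporters, SLC2A1 measured 119.5 ± 1.55 CPM in MUTZ-1 and 97.6 ± 3.62 CPM in SKM-1 (log2 difference 0.29) and SLC2A3 0.634 ± 0.227 CPM in MUTZ-1 and 64.03 ± 3.39 CPM in SKM-1 (log2 difference -6.64 ± 0.11 SE, adjusted p = 1.63e-128). HK1 measured 64.01 ± 0.141 CPM in MUTZ-1 and 261 ± 7.51 CPM in SKM-1 and HK2 269.8 ± 6.25 CPM in MUTZ-1 and 181 ± 6.95 CPM in SKM-1, in opposite directions (log2 differences -2.03 and 0.58). ENO2, the enolase of neurons and platelets, measured 49.9, 52.00 and 51.1 CPM in the SKM-1 libraries and 0.3397, 0.179 and 0.453 CPM in the MUTZ-1 libraries (log2 difference -7.26 ± 0.15 SE, adjusted p = 3.13e-114). PFKP, the platelet form of phosphofructokinase, measured 259, 254 and 252 CPM in the MUTZ-1 libraries and 38.99, 43.3 and 44.1 CPM in the SKM-1 libraries (log2 difference 2.60 ± 0.04 SE, adjusted p = 1.59e-147). The values of ALDOA were low for an enzyme of this pathway in both lines, and the gene overlaps another in some annotations, so they are uncertain. In the pentose phosphate pathway, 3 of 10 listed genes were at least 2-fold higher in SKM-1 and 1 in MUTZ-1, with ME1, malic enzyme, at 11.6 against 0.0388 CPM in SKM-1 against MUTZ-1. PGD (log2 difference 1.04), the 1 member past 2-fold in MUTZ-1, stayed below it without MUTZ-1 replicate 2 or 3, which left 0.

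In serine, glycine and one-carbon metabolism, 3 of 17 listed genes were at least 2-fold higher in SKM-1 and 2 in MUTZ-1 (median log2 difference -0.19 over the 17 tested). PHGDH, the entry to serine synthesis, measured 481 ± 17.5 CPM in MUTZ-1 and 390.1 ± 1.63 CPM in SKM-1 (log2 difference 0.30). GLDC, which breaks glycine down in mitochondria, measured 62.5, 66.00 and 62.4 CPM in the SKM-1 libraries and 0, 0 and 0 CPM in the MUTZ-1 libraries (at least 1106-fold higher in SKM-1, adjusted p = 8.74e-119). AMT, of the same glycine cleavage system, was at 9.14 against 0.233 CPM in SKM-1 against MUTZ-1, while GCSH, the third protein, measured 56.5 ± 0.7705 CPM in MUTZ-1 and 47.2 ± 1.24 CPM in SKM-1. The count in MUTZ-1 was 1 when any 1 MUTZ-1 library was left out. Among amino acid genes, 7 of 23 listed genes were at least 2-fold higher in SKM-1 and 4 in MUTZ-1 (median log2 difference -0.21 over the 22 tested). BCAT1, which transfers the amino group of branched-chain amino acids, measured 745, 706 and 738 CPM in the MUTZ-1 libraries and 97.9, 98.02 and 98.3 CPM in the SKM-1 libraries (log2 difference 2.90 ± 0.03 SE, adjusted p = 7.00e-177), and ASL, of arginine synthesis, 45.98 against 14.2 CPM. ASS1, the step before ASL, was higher in SKM-1 at 39.4, 37.2 and 41.8 CPM in the SKM-1 libraries and 2.38, 3.05 and 3.56 CPM in the MUTZ-1 libraries (log2 difference -3.72 ± 0.11 SE, adjusted p = 3.12e-82), as was ARG2, an arginase, at 219, 226 and 212 CPM in the SKM-1 libraries and 6.397, 6.99 and 5.66 CPM in the MUTZ-1 libraries (log2 difference -5.11 ± 0.06 SE, adjusted p = 7.50e-76).

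Lipid genes differed by pathway. In fatty acid metabolism, 10 of 23 listed genes were at least 2-fold higher in SKM-1 and 4 in MUTZ-1 (median log2 difference -0.79 over the 23 tested). FADS1, a desaturase of long polyunsaturated fatty acids, measured 485, 506 and 477 CPM in the SKM-1 libraries and 0.793, 0.777 and 0.622 CPM in the MUTZ-1 libraries (log2 difference -9.38 ± 0.06 SE, adjusted p = 4.20e-210). FASN, fatty acid synthase, measured 518 ± 7.15 CPM in MUTZ-1 and 1156 ± 25.7 CPM in SKM-1 (log2 difference -1.16 ± 0.02 SE, adjusted p = 6.26e-129), and LPL, lipoprotein lipase, 7.402 ± 1.01 CPM with no count in MUTZ-1 (at least 129-fold higher in SKM-1, adjusted p = 1.68e-48). ACSL5, which activates fatty acids, was higher in MUTZ-1, at 79.99, 77.7 and 77.9 CPM in the MUTZ-1 libraries and 0.449, 0 and 0.287 CPM in the SKM-1 libraries (log2 difference 8.30 ± 0.14 SE, adjusted p = 1.22e-120). In cholesterol synthesis, where the share in SKM-1 was under that of all genes tested, 6 of 23 listed genes were at least 2-fold higher in SKM-1 and 1 in MUTZ-1 (median log2 difference -0.72 over the 23 tested). MVK and MVD, which act on mevalonate and its product, averaged 55.3 against 20.5 and 119 against 46.3 CPM in SKM-1 against MUTZ-1 (log2 differences -1.43 and -1.36). PMVK, the step between them, was the 1 gene past 2-fold in MUTZ-1, at 66.2 ± 5.03 CPM in MUTZ-1 and 25.5 ± 2.099 CPM in SKM-1 (log2 difference 1.38 ± 0.06 SE, adjusted p = 1.79e-56). HMGCS1, an early enzyme, differed by a log2 of -0.74.

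**Figure D5:**
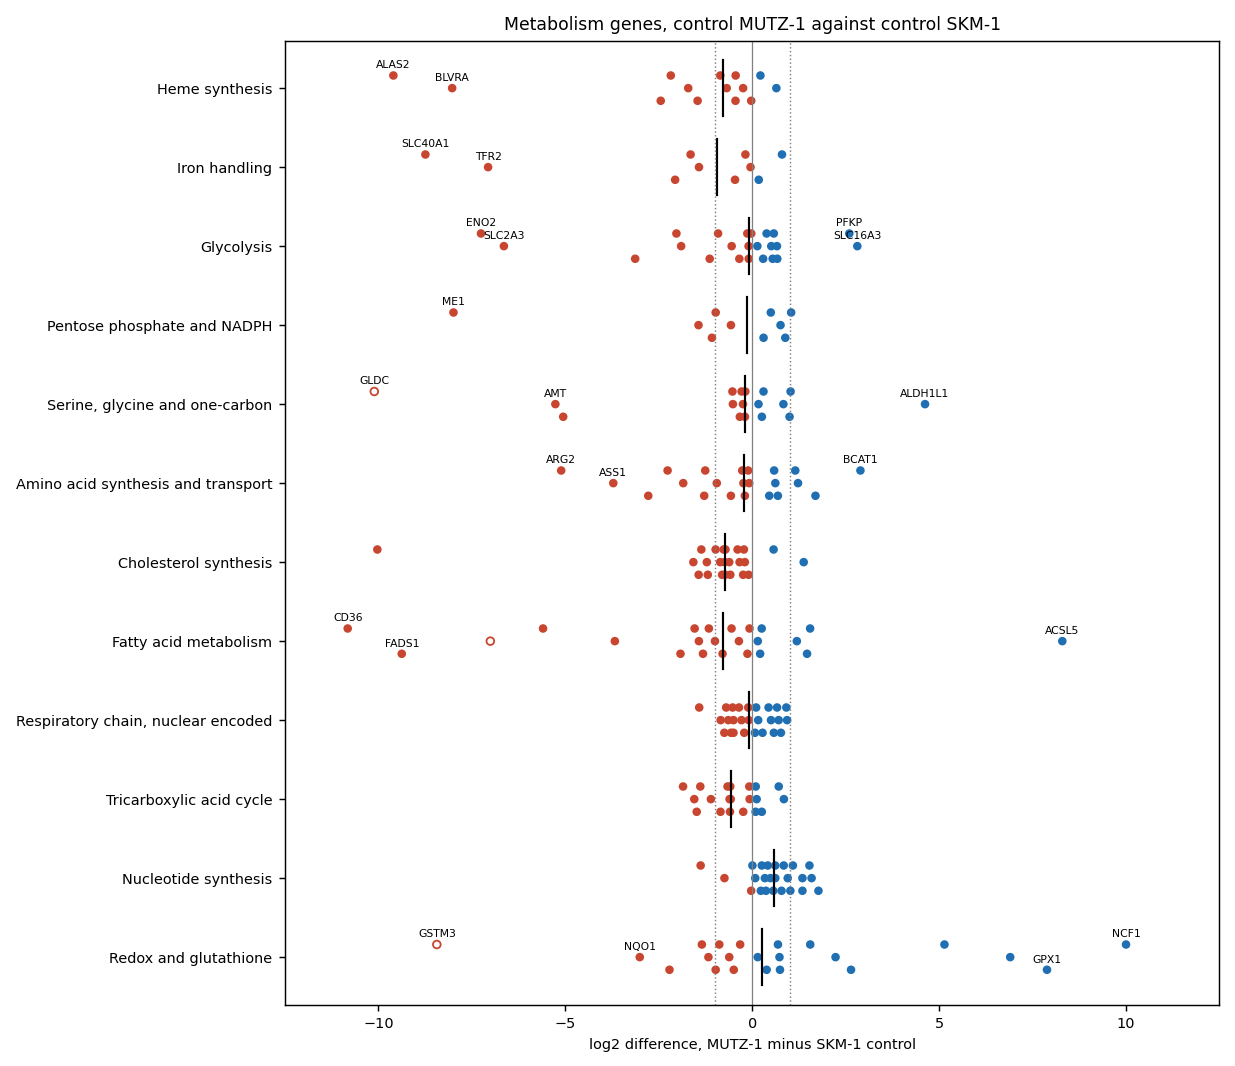
Log2 difference, MUTZ-1 minus SKM-1, of each tested gene in 12 metabolism lists, with a bar at the median, dotted lines at 2-fold and open circles for genes without a count in 1 line, placed at their bound. The 26 respiratory chain genes lie within about 2-fold of 0 with 1 exception, whereas ALAS2, BLVRA, GLDC and FADS1 lie far to the left and ACSL5, GPX1 and NCF1 far to the right.

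Of the nuclear genes of the respiratory chain, 1 of 26 listed genes was at least 2-fold higher in SKM-1 and 0 in MUTZ-1 (median log2 difference -0.10 over the 26 tested), a share under that of all genes in both directions. UQCRC1, a core protein of complex III, was the 1 gene past 2-fold, at 80.9 ± 4.804 CPM in MUTZ-1 and 216 ± 4.99 CPM in SKM-1 (log2 difference -1.42 ± 0.03 SE, adjusted p = 9.51e-93). NDUFA4 and NDUFB3, the largest differences toward MUTZ-1, stayed at log2 values of 0.93 and 0.91. Of the tricarboxylic acid cycle genes, 5 of 20 listed genes were at least 2-fold higher in SKM-1 and 0 in MUTZ-1 (median log2 difference -0.58 over the 20 tested), with SUCLG2, a subunit of succinyl-CoA synthetase, at 17.1 ± 1.701 CPM in MUTZ-1 and 61.6 ± 1.57 CPM in SKM-1 (log2 difference -1.85 ± 0.06 SE, adjusted p = 5.28e-73) and citrate synthase, CS, at 542 ± 14.5 CPM in MUTZ-1 and 569 ± 1.85 CPM in SKM-1.

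Nucleotide synthesis leaned to MUTZ-1. 7 of 24 listed genes were at least 2-fold higher in MUTZ-1 and 1 in SKM-1 (median log2 difference 0.59 over the 24 tested). DCK, which phosphorylates deoxycytidine and cytarabine, measured 155, 151 and 156 CPM in the MUTZ-1 libraries and 42.4, 47.3 and 45.4 CPM in the SKM-1 libraries (log2 difference 1.77 ± 0.04 SE, adjusted p = 3.84e-105). SAMHD1, which degrades the products, measured 117, 116 and 119 CPM in the MUTZ-1 libraries and 39.2, 41.2 and 41.2 CPM in the SKM-1 libraries (log2 difference 1.53 ± 0.04 SE, adjusted p = 1.34e-87). IMPDH1 and IMPDH2, forms of the enzyme of guanine nucleotide synthesis, went opposite ways, at 229 ± 4.53 CPM in MUTZ-1 and 76.2 ± 0.736 CPM in SKM-1 and 134 ± 5.02 CPM in MUTZ-1 and 348 ± 5.34 CPM in SKM-1 (log2 differences 1.59 and -1.38). Of redox genes, 7 of 22 listed genes were at least 2-fold higher in MUTZ-1 and 5 in SKM-1 (median log2 difference 0.27 over the 22 tested). CYBB, the catalytic subunit of the phagocyte NADPH oxidase, which B cells also carry, measured 116, 112 and 111 CPM in the MUTZ-1 libraries and 3.71, 3.47 and 2.36 CPM in the SKM-1 libraries (log2 difference 5.14 ± 0.07 SE, adjusted p = 4.66e-143), and NCF4, another subunit, 32.1 against 0.263 CPM. NCF1 has near-identical pseudogenes, so its value of 122 against 0.112 CPM is uncertain. GSTM3, a glutathione transferase, measured 19.97 ± 1.39 CPM in SKM-1 and had no count in MUTZ-1 (at least 347-fold higher in SKM-1, adjusted p = 4.78e-76). NQO1 measured 21.1, 19.8 and 22.3 CPM in the SKM-1 libraries and 2.66, 2.87 and 2.32 CPM in the MUTZ-1 libraries (log2 difference -3.01 ± 0.11 SE, adjusted p = 1.80e-69). GPX1, a glutathione peroxidase, measured 32.6 CPM in MUTZ-1 against 0.1305 CPM in SKM-1.

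Genes were also ranked by the fitted log2 difference, at a mean of at least 5 CPM over the 6 libraries. For a gene without a count in a line this fitted value depends on a small added prior count, so the rank is that of the fit and not of measured folds. Toward MUTZ-1 the first 10 were LRRC34, LY86, HLA-DQA1, SLC15A3, PLD4, SP140, MPEG1, MS4A1, CCL4L2 and LILRB1. Apart from MS4A1, they had no count in SKM-1, and their bounds ran from 228 to 529-fold, which is below the measured difference of genes such as MX1 and FCRLA. LY86, a partner of the B-cell receptor CD180, measured 27.2, 26.8 and 26.6 CPM in the MUTZ-1 libraries, SLC15A3, a lysosomal transporter, 24.00, 25.7 and 25.7 CPM, and PLD4, a nuclease of B and dendritic cells, 21.1, 23.2 and 20.5 CPM. CCL4L2 has near copies, so its value is uncertain.

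Toward SKM-1 the first 10 by the fitted value were SCML1, CPE, TCIM, PRRX1, ADCY6, MYO5B, FER1L6, TBX3, GLDC and HHIP, all without a count in MUTZ-1, with bounds from 1090.4 to 2283-fold. Genes with 1 to 3 counts in MUTZ-1 can have larger measured ratios, and CD276, an immune checkpoint ligand chosen after its values were seen, measured 218 ± 8.02 CPM in SKM-1 (ratio 11368, 95% interval 2040.0 to 449063, adjusted p = 4.93e-172). CPE, carboxypeptidase E of hormone processing, measured 91.9, 95.3 and 93.9 CPM in the SKM-1 libraries. PRRX1, a homeobox factor of mesenchyme, measured 75.5, 83.04 and 80.6 CPM, TBX3, a T-box factor of limb and breast, 64.3, 66.6 and 65.04 CPM, and HHIP, which binds hedgehog ligands, 64.1, 62.6 and 61.8 CPM. These genes are not blood lineage markers by their usual description. At a mean of at least 5 CPM in a line and at most 0.1 CPM in the other, 110 genes were on in MUTZ-1 only and 867 in SKM-1 only. With at least 10 CPM asked for, they were 80 and 621.

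The NUDT21 knockdown libraries give the line difference in samples that the control comparison does not use, although the fit shares its spread over all groups. There 2749 genes (20.2%) were at least 2-fold higher in MUTZ-1 and 3404 (25.0%) in SKM-1. Of the 6223 genes with a 2-fold difference between control lines, 4205 (67.6%) had one in the same direction and 317 (5.09%) in the other. The B-lineage surface antigens again counted 28 and 0, the B-lineage factors 17 and 0, the erythroid membrane genes 0 and 24 and the globins 0 and 10 genes in MUTZ-1 and SKM-1. PAX5 averaged 538 CPM in the MUTZ-1 knockdown libraries and 0.269 CPM in those of SKM-1, and KLF1 0.227 and 167 CPM. The 10 genes without a count in MUTZ-1 that ranked first toward SKM-1 all had a lower mean in the SKM-1 knockdown libraries. They had been picked for high values in the same SKM-1 control libraries. Their common direction is therefore a description and not an independent result. SCML1 averaged 131 CPM in the SKM-1 control and 3.903 CPM in the SKM-1 knockdown libraries, CPE 93.7 and 2.92 CPM, PRRX1 79.7 and 3.11 CPM, and TBX3 65.3 and 3.89 CPM. COL3A1 averaged 46.2 and 1.75 CPM, CD36 917 and 26.5 CPM, AXIN2 468 and 16.4 CPM, and MET 96.8 and 9.01 CPM, whereas KRT8 averaged 192 and 334 CPM and HOXB9 68.4 and 195 CPM. Of the 24 erythroid membrane genes, 21 had a mean in the SKM-1 knockdown libraries at or above that of the controls, as had 10 of the 11 listed globins and 17 of the 18 erythroid factors. The share over all genes was not counted, so these counts do not set the lists apart from other genes. The 3 membrane genes with a lower mean were CD36, BCAM, at 24.3 and 2.01 CPM, and EPB42, and the remaining globin was not analysed here. These knockdown differences were not tested. Whether control and knockdown SKM-1 cells are the same subclone was not tested.

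Along the autosomes, chromosome 7 stood apart toward MUTZ-1. Over the 417 of its genes at 5 CPM or more in both lines the median log2 difference was 0.86, against 0.14 over the 8709 such genes of all autosomes, and 0.64 over its 619 tested genes, against -0.36 to 0.31 for the other autosomes. Medians were also taken in windows of 40 neighbouring genes at 5 CPM or more in both lines. Consecutive windows overlapped and shared genes, so the window counts are not counts of separate regions. The 19 windows of chromosome 7 had medians from 0.50 to 1.23, and the 385 windows of other autosomes from -0.81 to 0.94, of which 31 were above the lowest of chromosome 7. The highest, chr7:44577894-70793506 from TMED4 to AUTS2, held 25 of 40 genes at least 2-fold higher in MUTZ-1. The lowest window ran from DDIT4 to ATAD1 on chromosome 10. Copy number was not measured.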

How the data were processed

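RNA from 12 libraries of 4 groups was sequenced by the authors, and the 6 control libraries were compared here. The deposited counts are whole numbers for 17518 genes and were not altered before the tests. A deposited table of FPKM values for these libraries served for the globins and for 2 alternatives. Per the submitters' processing notes, fastp, HISAT2 and HTSeq were used with build GRCh38. The sources used here do not give the annotation, the strand setting or the handling of multiply matching reads, so values of near-identical or overlapping genes are uncertain.

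With edgeR 4.0.16 in R 4.3.3, filterByExpr kept 13625 genes. The counts were scaled by TMM (factors 0.959 to 1.06 in the control libraries), and a robust quasi-likelihood model of all 12 libraries with 1 mean for each group was fitted (8 residual degrees of freedom, biological coefficient of variation 2.44%). Benjamini-Hochberg correction covered all genes tested. Replicates differed by more than sampling noise (chi-square per degree of freedom 1.67 to 2.28), so none was taken for a copy. A floor of 3 counts in a library was 0.163 to 0.179 CPM. On simulated counts of 13225 genes with 200 changed genes, 195 were recovered and 14 others were called. The changed genes were well counted and evenly split by direction, and all other genes were equal between the lines. In the control comparison 90.2% of the genes tested were called, so these rates do not carry over to it.

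The comparison and the 46 gene lists were chosen with earlier results of these data known. Lists are described by counts and medians, with no test of a list. A median "with bounds" places genes without a count in a line at their bound. The genes named are the 10 largest differences per direction at 5 CPM or more, up to 4 called members per list and direction at 1 CPM or more, and the first 5 of each list, some of which are not reported here. Members named beyond this rule, such as KEL, LMO2, BCL6, HBZ, SLC4A1 and NFKBIA, were chosen after their values were seen. Promoter sequences and positions are from RefSeq (GRCh38.p14), in which 17421 of the 17518 genes were matched. Alternatives were DESeq2 1.42.0, limma 3.58.1 on counts or on log2(FPKM + 1) and log2(FPKM + 0.1), library totals, other filters, a replicate block and leaving out each control library. Genes of the Y chromosome were left out of the named genes, of the genes on in 1 line only and of the autosome medians. They were not removed before the fit or from the counts over all genes.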

Additional observations from a re-analysis of the deposited data

How the results depend on the processing

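Over 16 settings the numbers of called genes stayed within 1.5 times of those reported, with 3 kinds of exception. With log2(FPKM + 1), 1315 genes were at least 2-fold higher in MUTZ-1, in place of 2189. Among genes with at least 5 CPM on average, 2453 were at least 2-fold higher in SKM-1, in place of 4034. Genes on in MUTZ-1 only were 167 with at most 0.2 CPM in SKM-1 and 58 with at most 0.05 CPM, in place of 110. When 1 control library was left out, 5308 to 5599 genes were called higher in MUTZ-1 and 6588 to 6903 in SKM-1, of which 2072 to 2232 and 4072 to 4237 differed at least 2-fold.

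For the 268 tested genes named in the text, 3959 of 3987 values under the alternatives kept their direction and side of the threshold. LEF1, ABL1 and ITGB3 lost their call in 12 values, HBB gained one in 1, and HOXB4 and NFKBIA, which were not called, took the other sign in 12. LEF1 changed sign, to -0.0295 with library totals, -0.0290 with log2(FPKM + 1) and -0.0294 with log2(FPKM + 0.1). The same settings shifted the median of all genes by -0.14, -0.12 and -0.13, and the cause was not tested. Among genes with at least 5 CPM, the median changed sign for progenitor antigens (0.56), T and NK antigens (4.99) and cell cycle arrest genes (-0.21), since fewer members remained. Counts in lists of mostly low genes moved most with log2(FPKM + 1).

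Replicate numbers did not pair the samples: deviations of same-numbered libraries correlated at -0.030 to -0.00090. With the replicate block, 5621 genes were called higher in MUTZ-1 and 6622 in SKM-1 (2183 and 4036 at 2-fold). Depth limits genes below about 0.2 CPM, where 3 counts or fewer lie behind a library's value.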

Other observations

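Gene families outside the lists were read by symbol, and were chosen after their values were seen, so the counts describe and test nothing. The HOX genes, which set position along the body axis and are used again in blood cells, differed by cluster. At least 2-fold higher in SKM-1 were 7 of 9 HOXB genes, 8 of 9 HOXC genes, 8 of 9 HOXD genes and 2 of 11 HOXA genes, against 0, 0, 0 and 5 in MUTZ-1. The last genes of the clusters, usually active in the hindmost parts of the embryo, were among them. HOXC12 measured 76.6, 70.7 and 76.2 CPM in the SKM-1 libraries and 0.113, 0 and 0.113 CPM in the MUTZ-1 libraries (log2 difference -9.79 ± 0.18 SE, adjusted p = 6.84e-125), HOXD13 41.9, 46.2 and 42.00 CPM in the SKM-1 libraries and 0.0566, 0 and 0 CPM in the MUTZ-1 libraries (ratio 2260.1, 95% interval 405 to 89306, adjusted p = 4.95e-104) and HOXA13 35.7, 39.9 and 37.3 CPM in the SKM-1 libraries and 4.76, 4.24 and 3.39 CPM in the MUTZ-1 libraries (log2 difference -3.19 ± 0.11 SE, adjusted p = 7.41e-75). HOXB13 had no count in MUTZ-1 and 32.4, 33.1 and 31.9 CPM in the SKM-1 libraries (at least 564-fold higher in SKM-1, adjusted p = 6.26e-91). In the SKM-1 knockdown libraries HOXC12, HOXD13, HOXA13 and HOXB13 averaged 1.62, 3.66, 1.23 and 0.654 CPM. HOXA13 was then higher in MUTZ-1, at 7.39 CPM. HOXB8 and HOXB9 instead averaged 16.1 and 195 CPM there. Between the knockdown lines, 8 HOXB, 6 HOXC, 7 HOXD and 0 HOXA genes were at least 2-fold higher in SKM-1, against 0, 1, 0 and 6 in MUTZ-1.

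Collagens and laminins form the matrix around cells, and laminins with some collagens the basement membrane. Of 43 collagen genes, 22 were at least 2-fold higher in SKM-1 and 3 in MUTZ-1, and of 11 laminin genes 7 and 0. COL4A2, a chain of the network collagen of basement membranes, measured 137, 136 and 135 CPM in the SKM-1 libraries and 3.23, 4.002 and 3.45 CPM in the MUTZ-1 libraries (log2 difference -5.25 ± 0.08 SE, adjusted p = 2.12e-140), and LAMB2, a laminin chain, 167, 169.7 and 169 CPM in the SKM-1 libraries and 0, 0 and 0.1697 CPM in the MUTZ-1 libraries (ratio 2928, 95% interval 1002 to 14202, adjusted p = 1.98e-123). LAMC1, the most common laminin gamma chain, was higher in MUTZ-1 at 247, 238 and 244 CPM in the MUTZ-1 libraries and 193, 191 and 196 CPM in the SKM-1 libraries (log2 difference 0.33 ± 0.03 SE, adjusted p = 6.39e-25). COL9A3, a cartilage collagen, was also higher in MUTZ-1 at 36.9, 39.1 and 36.7 CPM in the MUTZ-1 libraries and 0.449, 1.03 and 1.26 CPM in the SKM-1 libraries (log2 difference 5.35 ± 0.13 SE, adjusted p = 5.81e-100).

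Cancer-testis genes, which are silent in most tissues outside the testis, were detected in SKM-1. Of 22 MAGEA, MAGEB and MAGEC genes, 13 were at least 2-fold higher there and 0 in MUTZ-1. Of 7 genes of the MAGED, MAGEE, MAGEF and MAGEH groups, several of which most tissues express, these were 3 and 0, with MAGED2 at 33.1 ± 2.32 CPM in MUTZ-1 and 141 ± 4.62 CPM in SKM-1. MAGEC2 measured 22.1, 17.04 and 19.8 CPM in the SKM-1 libraries and had no count in MUTZ-1 (at least 341-fold higher in SKM-1, adjusted p = 7.92e-83). PRAME, an antigen of leukemias and melanomas, measured 722, 714 and 727 CPM in the SKM-1 libraries and 0.3397, 1.19 and 1.07 CPM in the MUTZ-1 libraries (log2 difference -9.69 ± 0.06 SE, adjusted p = 1.07e-71). MAGEA3 and MAGEA6, at 36.8 and 78.1 CPM in SKM-1, are near copies, and their split is uncertain. The clustered protocadherins of the alpha, beta and gamma groups went the other way, with 19 of 47 genes at least 2-fold higher in MUTZ-1 and 0 in SKM-1. Most were low, with 32 of the 47 under 1 CPM in both lines and 3 at 5 CPM or more in MUTZ-1. PCDHGC3 measured 18.6, 15.8 and 16.1 CPM in the MUTZ-1 libraries and 0, 0 and 0.0575 CPM in the SKM-1 libraries (ratio 904, 95% interval 162 to 35746, adjusted p = 2.23e-72). The gamma genes share their last exons, so that counting by gene may miss or split their reads.

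The SRC family divided by member. BLK, LCK, FGR and LYN were at least 2-fold higher in MUTZ-1, and YES1, SRC, FRK and FYN in SKM-1. YES1, a member found in most tissues, measured 127, 126 and 128 CPM in the SKM-1 libraries and 0.0566, 0.0597 and 0 CPM in the MUTZ-1 libraries (ratio 3314, 95% interval 917 to 27369, adjusted p = 2.24e-157).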
